A study of Mus musculus with 4 samples.

Results

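Integrins, cadherins, protocadherins and syndecans are the transmembrane receptors that fasten muscle fibres and their neighbouring cells to the matrix and to each other. Their transcripts were read here from 59 probe sets for 38 genes, out of 12422 probe sets tested and 8251 named genes. The members were all probe sets with a single gene symbol starting with Itga, Itgb, Cdh followed by a digit, or Pcdh, together with Sdc1 to Sdc4. The endothelial cadherin Cdh5 was left out by that rule. They comprised 19 integrin subunits (31 probe sets), Itgb1bp1, which is named for binding the beta1 subunit (3 probe sets), 12 cadherins (16 probe sets), 2 protocadherins (3 probe sets) and 4 syndecans (6 probe sets). The rule itself uses names and no measured value.

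RNA came from the gastrocnemius and soleus muscles, combined, of male mice aged 6.5 months on a C57BL/6x129 background. Crhr2-/- mice (KO), which lack the receptor for the urocortin peptides, were compared with Crhr2+/+ littermates (WT). All mice ate chow and were sampled without treatment. The 4 mice of a genotype gave 2 RNA pools, each from 2 mice, and each pool was hybridised to 1 Affymetrix U74Av2 array, so n = 2 arrays per genotype, 4 in all. The cells of the pooled tissue were not separated.

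An integrin is a pair of 1 alpha and 1 beta subunit. It binds laminin, fibronectin, vitronectin or a receptor on another cell outside, and talin and the actin cytoskeleton inside. In muscle fibres the pair of Itga7 and Itgb1 holds the sarcolemma to the laminin of the basement membrane and is enriched where muscle meets tendon. Cadherins bind cadherins on the next cell and reach actin through catenins. Syndecans are core proteins whose heparan sulfate chains hold growth factors and matrix proteins beside the integrins.

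Signal intensity is given in the deposited arbitrary units, and differences are KO minus WT on the scale log2(intensity + 14), ± the standard error of the limma fit. That scale understates the fold change of dim probe sets. Fewer cells of a type and less RNA per cell cannot be told apart in such tissue RNA. "Apart" below means that both KO arrays read above, or both below, both WT arrays. The arrays had equal scaling (a mean of 200.2 without the extreme values) and medians from 67.6 to 71.2, and they correlated pairwise at 0.960 to 0.966 across all probe sets (genes are not replicates). Crhr2 itself read 154 and 192 in the WT pools and 100.4 and 75.1 in the KO pools on its brighter probe set (-0.88 ± 0.25, limma adjusted p = 0.803, exact two-sided permutation p = 0.333, the smallest that 2 against 2 arrays allow). On the other Crhr2 probe set the genotypes overlapped (-0.03 ± 0.43), and where either lies relative to the deleted part was not known, so they check the labels in a limited way. All 12 muscle fibre markers examined were measured, with summed intensities from 95900 to 101522 on the 4 arrays. The brightest markers, such as Acta1 and Myh4, dominate that sum. Markers of slow fibres differed between the WT pools. Myh7 read 1968 and 3666 in WT, against 3452 and 2872 in KO. Tnnt1 read 2338 and 3999 in the WT pools and 4153 and 3255 in the KO pools. Tnni1 read 1013 and 1784 in WT, against 1570 and 1356 in KO.

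None of the 59 probe sets passed the test. The adjusted p was under 0.05 for 0 of 12422 probe sets in limma (0.0%), and the members' adjusted p ran from 0.803 to 0.996. At an unadjusted p under 0.05 there were 2 members, Cdh4 and Cdh8, or 3.39%, against 5.43% of all probe sets. The genotypes were apart with KO higher for 12 members and with KO lower for 12, or 20.3% each, where the shares of all probe sets were 17.0% and 17.6%. A size rule, at least 2-fold on the log2 scale used, apart, and brighter than the median probe set on average, was met by 0 members and by 0.443% of all probe sets. The median member difference was 0.03, against 0.00 over all probe sets, with 33 members higher and 26 lower. Differences ran from -0.89 (Cdh8) to 1.94 (Cdh4). Only 20 of the 59 (33.9%) lay above the median probe set, so most members were read at dim signal. There the 14 added before log2 compresses differences, but the values are also noisier. The median standard error was 0.35 for members below the median probe set and 0.21 for those above. Their median absolute differences were 0.29 and 0.19.

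The matrix side was led by Itgb1, the shared beta subunit of the laminin, collagen and fibronectin receptors. Its first probe set (100123_f_at) read 2828 and 2495 in WT, against 2350 and 2337 in KO (-0.18 ± 0.11, limma adjusted p = 0.908). The second (100124_r_at) read 780.3 and 806 in the WT pools and 691 and 727 in the KO pools (-0.16 ± 0.10). Both KO arrays lay below both WT arrays on both probe sets, with differences below 2 standard errors. Without WT replicate 1 the first difference was -0.09. Affymetrix gives suffixes such as _f, _g, _i and _r to probe sets designed under relaxed rules, which may read related transcripts.

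Itga7, the alpha subunit that pairs with Itgb1 in muscle fibres, showed no such separation. Its brightest probe set (161497_f_at) read 158 and 179.5 in WT, against 173 and 167 in KO (0.01 ± 0.18), so the genotypes overlapped. The other Itga7 probe sets differed by 0.03 ± 0.21 and 0.05 ± 0.43. Itga6, a laminin-binding subunit of epithelia and vessels, read 55.1 and 59.1 in the WT pools and 62.3 and 28.0 in the KO pools (-0.33 ± 0.41), its difference resting on KO replicate 2. Without that array it was 0.10. Itga3, a laminin-binding subunit of epithelia, had differences of -0.29 ± 0.36 and 0.09 ± 0.64 on its probe sets. In all, 0 of the 6 probe sets for laminin-binding alpha subunits were apart, against 34.6% of all probe sets. The median difference of these 6 was 0.02.

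Itgb4, the partner of Itga6 in hemidesmosomes, read 119 and 157 in WT, against 150.1 and 128 in KO (0.01 ± 0.23), with overlap. Itga2, a collagen-binding subunit, read 19.6 and 19.0 in the WT pools and 11.1 and 35.7 in the KO pools, so the KO arrays lay on either side of the WT pair (0.09 ± 0.41). Itgb2l, a beta2-like subunit, ranged from 40.4 to 92.7 with overlap (0.30 ± 0.41).

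Of the 6 probe sets for alpha subunits that bind the arginine-glycine-aspartate sequence of fibronectin and vitronectin, 3 were apart with KO higher and 0 with KO lower, against 17.0% and 17.6% of all probe sets (median 0.20). These 3 were dim, both Itga8 probe sets and the dimmest of Itgav, and none passed the test. Itgb5, which pairs with Itgav to bind vitronectin, read 382 and 442 in WT, against 449 and 559 in KO on its brighter probe set (100601_at; 0.28 ± 0.16, limma adjusted p = 0.908). The other (162218_f_at) read 95.3 and 77.4 in the WT pools and 101.5 and 144 in the KO pools (0.44 ± 0.28). KO replicate 2 was highest on both, and KO replicate 1 exceeded the higher WT array by a small margin. Without KO replicate 2 the differences were 0.12 and 0.21.

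Itgav, the alphaV subunit itself, was read by 3 probe sets that disagreed. Its brightest probe set (104386_f_at) read 609 and 442 in WT, against 476 and 550.0 in KO (-0.02 ± 0.18), with KO inside the WT range. The second differed by 0.32 ± 0.28 with overlap, KO replicate 1 reading 216 against 129 in KO replicate 2. Only the dimmest (98366_at) was apart, at 28.7 and 38.8 in the WT pools and 40.6 and 50.6 in the KO pools (0.32 ± 0.35).

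Itga5, the classical fibronectin receptor subunit, read 9.23 and 12.1 in WT, against 11.9 and 11.8 in KO (0.07 ± 0.24). Itga8, which binds nephronectin, was apart with KO higher on both of its dim probe sets (0.33 ± 0.27 and 0.08 ± 0.20). Its highest intensity on any array was 19.2. Itgb3, the beta subunit shared by Itgav and the platelet receptor, read 8.49 and 17.8 in the WT pools and 12.7 and 14.7 in the KO pools (0.05 ± 0.29). The summed signal of 3 of 4 platelet markers was 56.8 and 65.5 in WT, against 87.0 and 83.3 in KO, all 3 below the median probe set, and its part in the Itgb3 level was not tested.

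**Figure D1:**
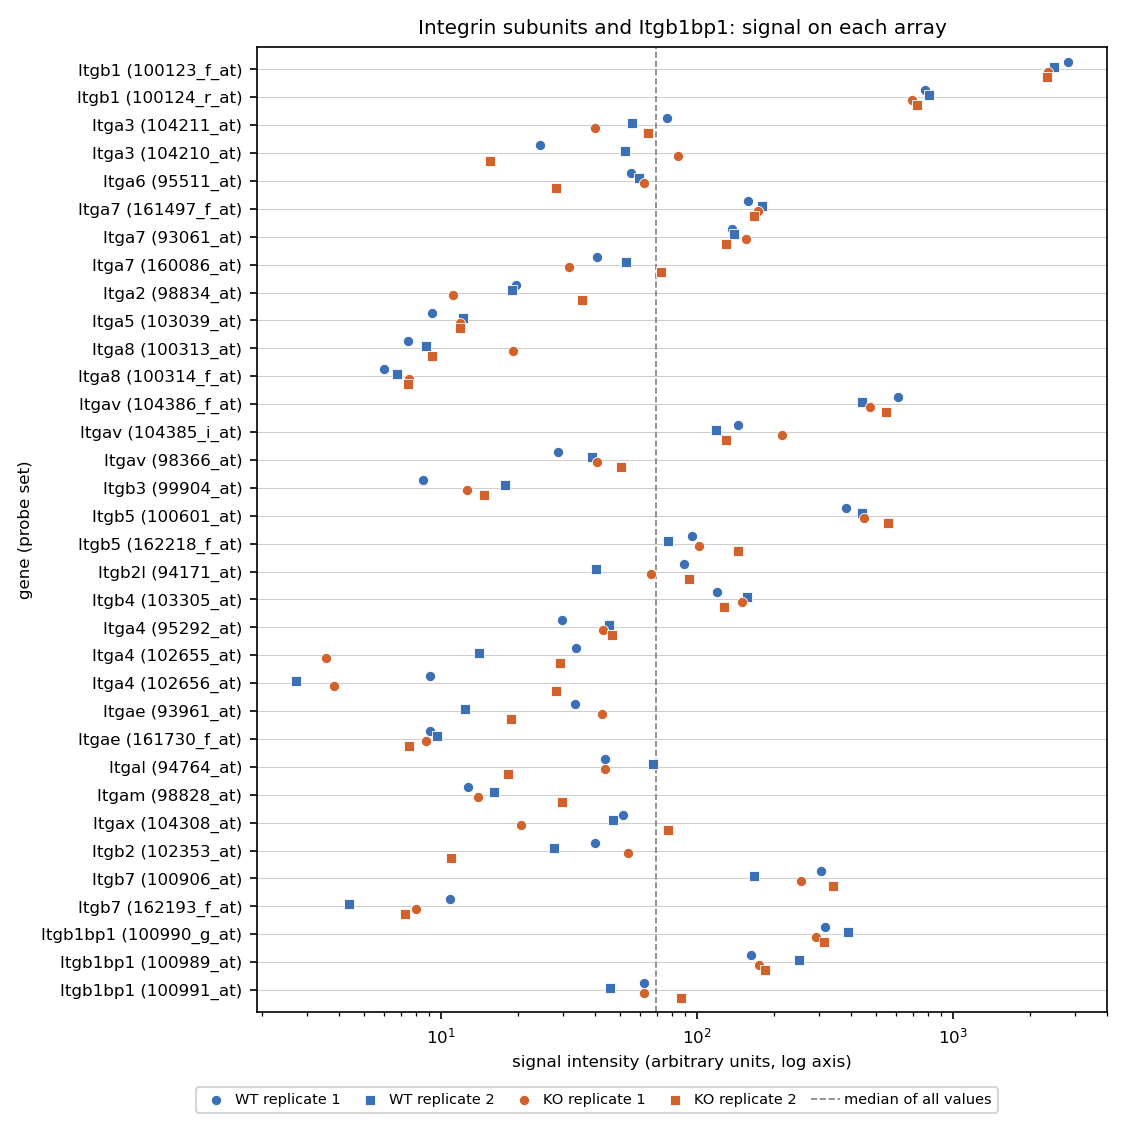
Signal intensity (arbitrary units, log axis) of the 31 integrin subunit and 3 Itgb1bp1 probe sets on each of the 4 arrays, with points of a row set slightly apart vertically so that they can be told apart. Blue marks WT and orange KO, circles replicate 1 and squares replicate 2, and the dashed line is the median of the table. Both Itgb1 rows show the orange points left of the blue ones and both Itgb5 rows right of them, while in 23 of the 31 subunit rows the colours interleave.

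Itgb1, Itgb5 and the syndecan Sdc4 were the genes whose probe sets all lay above the median and all kept the genotypes apart, and that had an entry in the promoter table. They were chosen after their values were seen. Their promoters are printed to show which kind of start site these 3 members have, since the first read lower in KO and the others higher. Each is the 250 bases before the annotated start in gene orientation, from RefSeq on GRCm38.p6, with GC boxes (GGGCGG on either strand) in capitals. They lie at chr8:128685404-128685653 on the plus strand (Itgb1), chr16:33829415-33829664 on the plus strand (Itgb5) and chr2:164443189-164443438 on the minus strand (Sdc4).
Itgb1: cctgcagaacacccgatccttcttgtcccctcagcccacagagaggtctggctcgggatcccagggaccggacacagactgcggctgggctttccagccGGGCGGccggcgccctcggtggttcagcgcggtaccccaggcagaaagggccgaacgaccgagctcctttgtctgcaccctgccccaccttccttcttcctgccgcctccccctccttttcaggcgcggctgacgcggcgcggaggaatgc
Itgb5: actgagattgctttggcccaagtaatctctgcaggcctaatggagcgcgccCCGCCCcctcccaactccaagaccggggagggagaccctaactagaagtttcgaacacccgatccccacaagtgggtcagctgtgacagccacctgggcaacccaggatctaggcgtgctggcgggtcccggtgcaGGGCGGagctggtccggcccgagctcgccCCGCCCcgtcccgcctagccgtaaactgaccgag
Sdc4: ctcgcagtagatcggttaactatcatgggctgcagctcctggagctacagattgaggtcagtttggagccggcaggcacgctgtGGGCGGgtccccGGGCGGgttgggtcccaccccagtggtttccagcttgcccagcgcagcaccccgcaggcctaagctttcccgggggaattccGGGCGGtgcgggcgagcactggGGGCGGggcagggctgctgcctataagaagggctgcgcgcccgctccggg
All 3 are rich in CpG, with 21, 18 and 19 CpG dinucleotides, against a median of 14 for the promoters of genes on the array and 10 for the members' promoters. GC boxes numbered 1, 3 and 4. Of 38 member genes 22 were matched in the table (23 promoters), and 56.5% of those promoters held a GC box, against 52.8% for genes on the array and 32.7% of all promoters. The cAMP response element TGACGTCA, whose binding protein is a known target of receptors that raise cAMP, as Crhr2 does, was found in 0 of the 23 member promoters and in 2.21% of array promoters. Its shorter form TGACG, contained in the full one, was in 13.0% against 24.3%, including Itgb1. E boxes (CANNTG), where myogenic factors bind, were in 69.6% against 59.2%, with 3 in Itgb5, and the TATAAA sequence was in 0.0% against 8.93%. All motifs were searched on both strands, and these matches describe letters in this window, not bound sites.

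Integrins of leukocytes, which let blood cells adhere to vessel walls, made up 11 probe sets of 7 genes. Only 1 of the 11 lay above the median probe set. The median difference was 0.02, with 0 apart and higher and 1 apart and lower (9.09%), against 17.0% and 17.6% of all probe sets. Itgb7, which pairs with Itga4 or Itgae on lymphocytes, was the bright one (100906_at), at 306 and 166 in the WT pools and 255 and 340.1 in the KO pools (0.36 ± 0.30). WT replicate 2 was lowest and KO replicate 2 highest. The summed signal of 5 of 6 lymphocyte markers stood in the same order over the arrays, at 605 and 274 in WT, against 524 and 738 in KO, and 5 of 5 leukocyte markers summed to 1230 and 437 in the WT pools and 802 and 1192 in the KO pools. No marker of either list was at 0, and their part in the Itgb7 difference was not tested. Without WT replicate 2 the Itgb7 difference was -0.05.

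Itgal, the alpha chain of the LFA-1 receptor, read 43.8 and 67.6 in WT, against 43.9 and 18.2 in KO (-0.67 ± 0.44), the order of the arrays opposite to that of Itgb7. Leaving out KO replicate 2 gave -0.25 and leaving out KO replicate 1 gave -1.09. Itgb2, the beta chain of LFA-1 and Mac-1, read 39.8 and 27.7 in the WT pools and 53.9 and 10.97 in the KO pools, a pair of KO values on either side of both WT arrays (-0.20 ± 0.54). Itgam, the alpha chain of Mac-1 on macrophages and neutrophils, read 12.7 and 16.0 in WT, against 13.9 and 29.7 in KO (0.30 ± 0.34). The related Itgax of dendritic cells spanned 20.6 to 77.0, both within KO (-0.17 ± 0.52). The summed macrophage and neutrophil markers, 6 of 6 measured, ran from 749 to 843 with KO below WT.

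Itga4, the VLA-4 subunit, had probe sets that pointed different ways, at 0.21 ± 0.36, -0.41 ± 0.51 and 0.48 ± 0.43. The first read 29.6 and 45.5 in the WT pools and 43.1 and 46.4 in the KO pools. Itgae, which binds E-cadherin, differed by 0.28 ± 0.46 and -0.08 ± 0.21, and the latter (161730_f_at), between 7.51 and 9.68 on all arrays, was the probe set apart with KO lower.

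Itgb1bp1 encodes a protein that binds the beta1 cytoplasmic tail. Its brightest probe set (100990_g_at) read 317 and 389 in WT, against 291 and 315 in KO (-0.21 ± 0.16), apart by the gap between 317 and 315 and at -0.06 without WT replicate 2. The second read 162 and 250.2 in the WT pools and 175 and 184 in the KO pools (-0.16 ± 0.23). The third, dimmer, went the other way, at 62.4 and 45.7 in WT, against 61.9 and 86.9 in KO (0.37 ± 0.34), so the gene's probe sets did not share a direction.

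Of the families with more than 3 probe sets, cadherins had the highest share apart: 10 of 16 (62.5%), 4 with KO higher and 6 with KO lower, where the shares for all probe sets given above sum to 34.6%. By comparison 8 of 31 integrin subunit probe sets (25.8%) and 3 of 6 syndecan probe sets were apart. These family shares were not tested against each other. The cadherin median was -0.15, and 12 of the 16 probe sets lay below the median probe set.

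Cdh4, R-cadherin, a classical cadherin of retina and brain that is also expressed in developing muscle, had the largest member difference. Probe set 95371_g_at read 10.8 and 8.69 in the WT pools and 68.4 and 86.7 in the KO pools (1.94 ± 0.35, limma adjusted p = 0.803). Probe set 95898_at read 17.3 and 15.1 in WT, against 38.4 and 35.5 in KO (0.76 ± 0.32). The remaining one, 95370_at, stayed between 3.94 and 8.13 on all arrays (-0.03 ± 0.21). Thus 2 of 3 probe sets were apart, with WT pairs and KO pairs each close together, and the dimmest was not. With 4 times the pseudocount the first difference was 1.02 and with 0.25 times it 2.61, and the second was 0.37 and 1.04, since these values lie near the pseudocount. The first stayed between 1.80 and 2.09 when any 1 array was left out.

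Cdh8, a type II cadherin of the nervous system, had the lowest difference, at 14.5 and 20.4 in the WT pools and 1.31 and 4.59 in the KO pools (-0.89 ± 0.24, limma adjusted p = 0.803). It was -0.32 with 4 times the pseudocount and -1.73 with 0.25 times it. Cdh11, a type II cadherin of mesenchymal cells, read 18.2 and 23.2 in WT, against 6.07 and 12.2 in KO (-0.59 ± 0.29). Cdh6, a type II cadherin of kidney, read 14.9 and 7.18 in the WT pools and 4.01 and 3.53 in the KO pools (-0.48 ± 0.23). Cdh10 of brain was apart the other way at very low signal, 4.10 and 3.25 in WT, against 6.68 and 7.17 in KO (0.24 ± 0.18). Cdh9, also of brain, overlapped (-0.13 ± 0.52), ranging from 3.86 to 29.6. The 5 type II cadherins had a median of -0.48, all 5 below the median probe set, where no detection call was at hand to tell low signal from background.

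Some of these genes are neighbours in GRCm38.p6. Cdh8 and Cdh11, both lower and apart, have no protein-coding gene between them. Cdh6, Cdh9 and Cdh10 lie in a row, and there the first read lower, the last higher and the middle one overlapped. Cdh1 and Cdh3 are also adjacent, as are Itgam and Itgax. No member lies on the chromosome of Crhr2.

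The brightest cadherin was Cdh13, T-cadherin, which is held to the membrane by a lipid anchor and binds adiponectin on vessels and muscle. It read 268 and 316 in the WT pools and 233 and 235 in the KO pools (-0.30 ± 0.16, limma adjusted p = 0.908), apart with KO lower, and differed by -0.19 without WT replicate 2. Endothelial markers, 6 of 6 measured, summed to 874 and 850.1 in WT, against 824 and 918 in KO, which overlap. Taken singly, 4 of them read lower and 2 higher in KO (median -0.15). Smooth muscle and pericyte markers, 5 of 5 measured, had 4 lower and 1 higher (median -0.26). The part of vessel cells in the Cdh13 difference was not tested. Cdh1, E-cadherin of epithelia, read 131 and 129.7 in the WT pools and 108.8 and 101.0 in the KO pools (-0.28 ± 0.22). Its pairs were close together, with gaps within a genotype of 0.02 and 0.09.

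Cdh15, M-cadherin of satellite cells and myoblasts, read 119 and 125 in WT, against 109.9 and 112 in KO on its brighter probe set (-0.12 ± 0.22), apart by less than 1 standard error. Its dimmer probe set overlapped (0.04 ± 0.46). The summed satellite cell and myoblast markers, 4 of 5 measured (without Pax7), were 551 and 542 in the WT pools and 553 and 609 in the KO pools. Myod1 gave most of each sum, at 386 and 395 in WT, against 386 and 499 in KO. The others went different ways (Pax3 0.67 ± 0.39, Myf5 -0.35 ± 0.32, Myog -0.44 ± 0.38). The part of such cells in the Cdh15 difference was not tested. Cdh2, N-cadherin of nerve and muscle precursors, read 30.7 and 10.8 in WT, against 15.7 and 4.57 in KO, overlapping (-0.50 ± 0.40), and the difference was -0.08 without WT replicate 1 and -0.93 without WT replicate 2. Cdh3, P-cadherin, had differences of -0.18 ± 0.38 and -0.16 ± 0.38, both with overlap, and Cdh16 of kidney was apart with KO higher at 5.03 to 12.2 (0.31 ± 0.21).

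Protocadherins, relatives of cadherins that lack the catenin-binding tail, were dim throughout. Pcdh12 of endothelium read 20.4 and 22.4 in the WT pools and 16.7 and 15.3 in the KO pools (-0.24 ± 0.29), apart with KO lower. The probe sets of Pcdh7 disagreed. One read 9.08 and 11.4 in WT, against 9.87 and 23.8 in KO (0.31 ± 0.31), and the other 10.9 and 27.8 in the WT pools and 5.13 and 9.13 in the KO pools (-0.62 ± 0.33), the latter apart and at -0.24 without WT replicate 2.

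**Figure D2:**
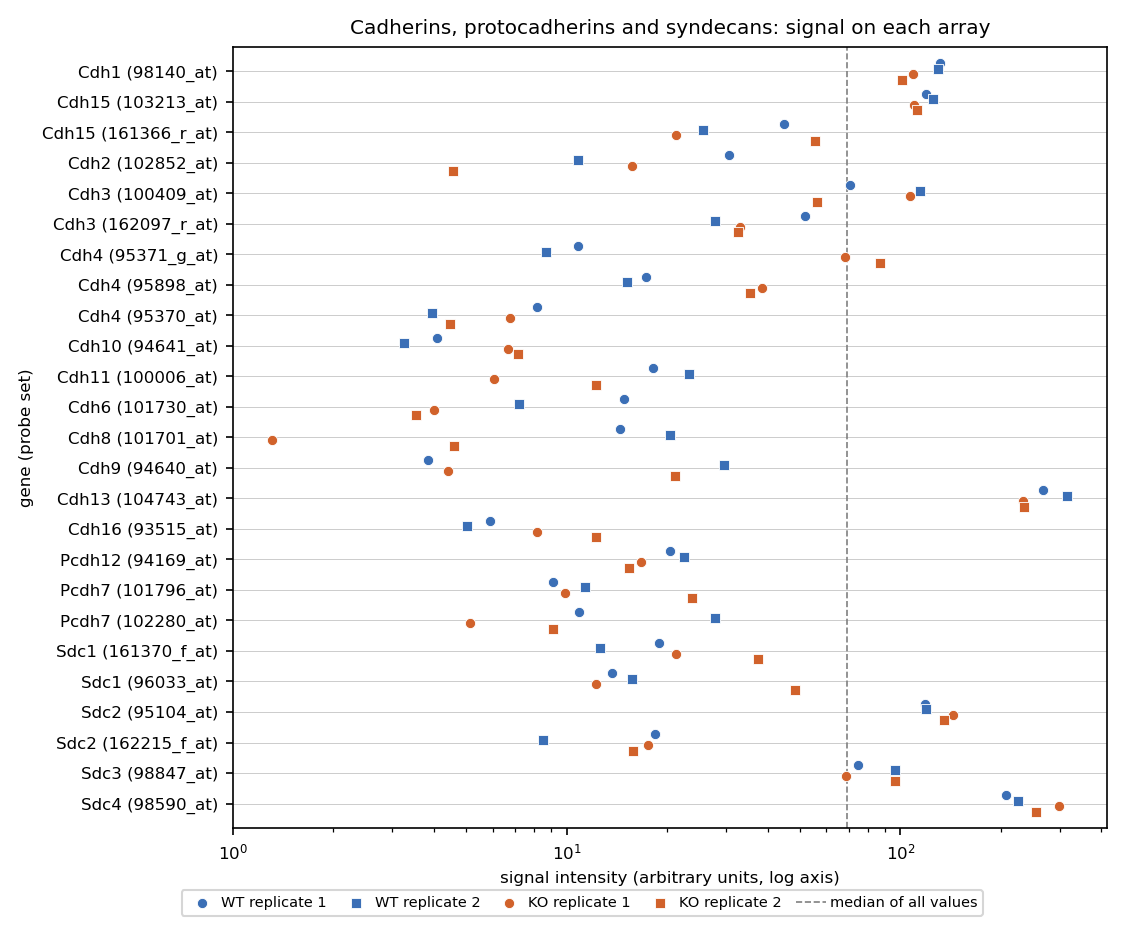
Signal intensity (arbitrary units, log axis) of the 16 cadherin, 3 protocadherin and 6 syndecan probe sets on each array, with the points of a row offset vertically. Blue marks WT and orange KO, circles replicate 1 and squares replicate 2, and the dashed line is the median of the table. The KO points stand right of the WT points in 2 of 3 Cdh4 rows and in the Sdc4 row, and left of them for Cdh8, Cdh11, Cdh6, Cdh13 and Cdh1.

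Syndecans read higher in KO on 5 of 6 probe sets (median 0.27), 3 of them apart with KO higher and 0 with KO lower, against 17.0% and 17.6% of all probe sets. None passed the test, adjusted or unadjusted. Sdc4, the syndecan of focal adhesions and of satellite cells, read 207 and 226 in WT, against 298 and 254 in KO (0.33 ± 0.16, limma adjusted p = 0.908), both KO arrays above both WT arrays. Sdc2, a syndecan of mesenchymal cells, read 119 on each WT array and 144 and 135 in KO (0.20 ± 0.21). Its dim probe set overlapped (0.18 ± 0.30). The WT values of Sdc2 were nearly equal, but the standard error, which borrows from probe sets of similar level, was as large as the difference.

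Sdc1, the syndecan of epithelia and plasma cells, was dim. It read 18.9 and 12.6 in the WT pools and 21.3 and 37.5 in the KO pools on 1 probe set (0.53 ± 0.35, apart) and 13.7 and 15.8 in WT, against 12.2 and 48.4 in KO on the other (0.49 ± 0.46), where KO replicate 2 alone was high. Without that array the latter difference was -0.13. Sdc3, the syndecan of nerve and satellite cells, read 74.7 and 96.6 in the WT pools and 68.7 and 96.4 in the KO pools (-0.05 ± 0.30), the replicates of a genotype differing more than the genotypes.

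**Figure D3:**
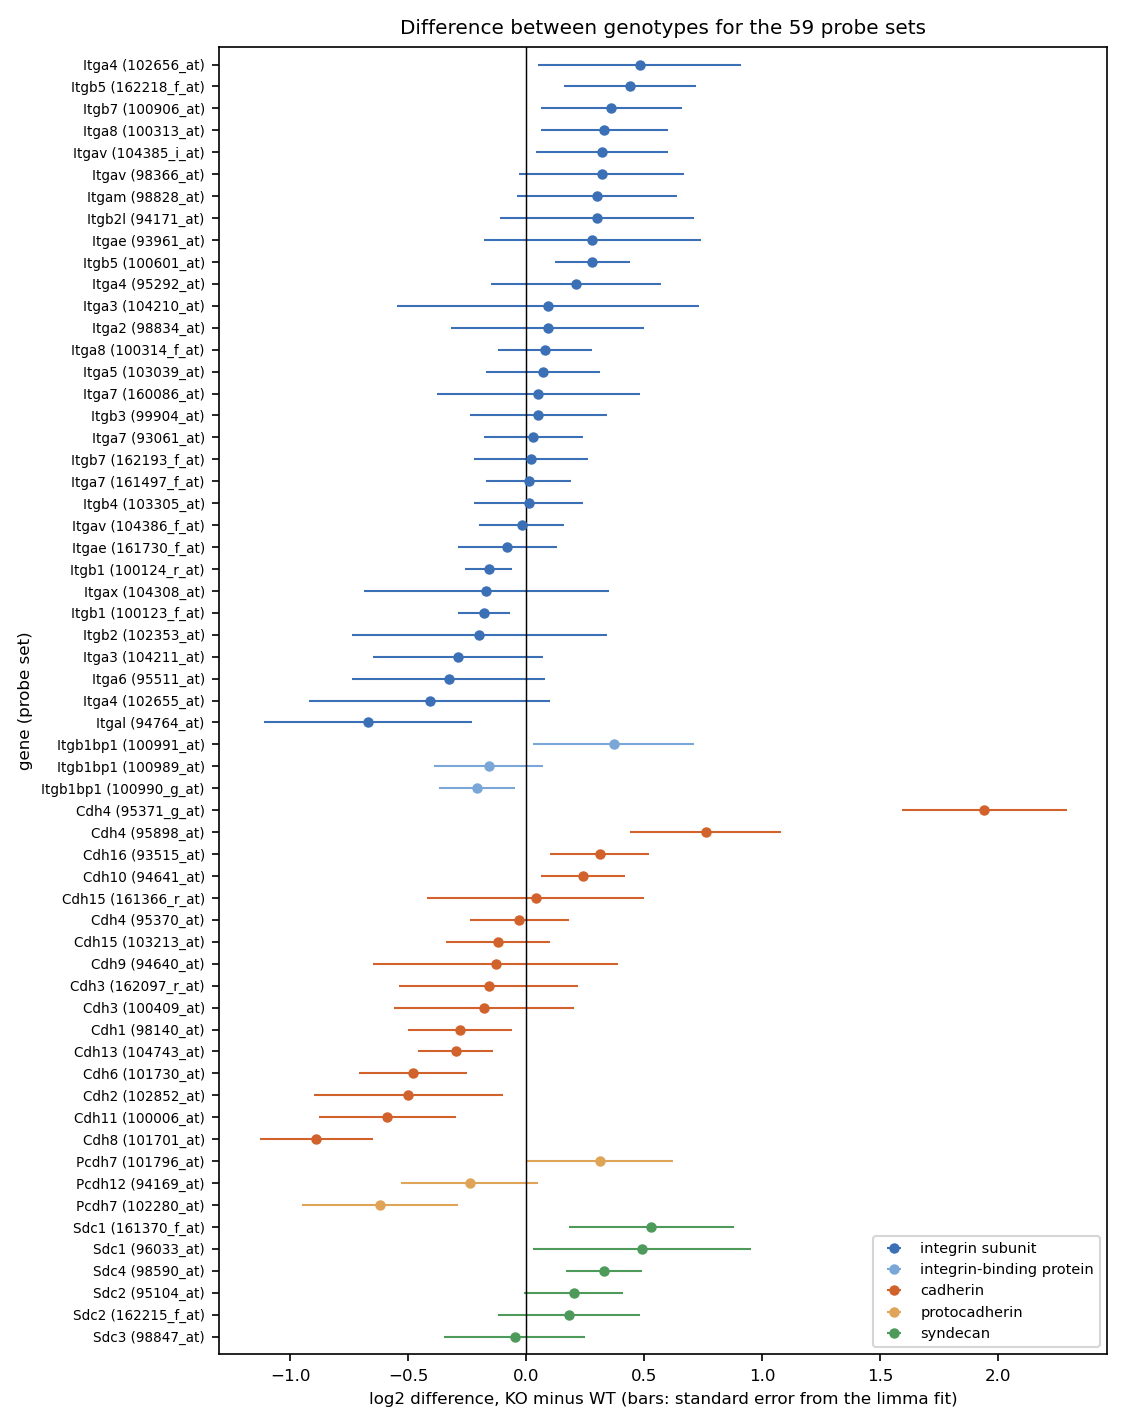
Difference between genotypes (KO minus WT, log2 scale, horizontal axis) for the 59 probe sets, sorted within each family, with bars of 1 standard error from the limma fit. The syndecan points lie between -0.05 and 0.53 and the cadherin points spread from -0.89 to 1.94, with no probe set past the adjusted threshold.

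Agreement between probe sets of a gene was limited. Of the 16 genes with more than 1 probe set, 8 had differences of 1 sign and 8 of both signs. Counting genes whose every probe set was apart gave 5 with KO higher (Cdh10, Cdh16, Itga8, Itgb5 and Sdc4) and 7 with KO lower (Cdh1, Cdh6, Cdh8, Cdh11, Cdh13, Itgb1 and Pcdh12), or 13.2% and 18.4% of the member genes. Of all 8251 genes, 12.8% and 14.9% met the same criterion, so the members' shares lay near the background. Of these 12 genes, Itgb1, Itgb5 and Itga8 rest on 2 probe sets and the others on 1.

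The difference between genotypes exceeded the gap between arrays in both genotypes for 17 of 59 members (28.8%). The same held for 2736 of all 12422 probe sets (22.0%). Taking the larger of the gaps within a genotype for each probe set, the median was 0.45 for members and 0.41 for all probe sets. Cadherins made up 10 of the 17, and the others were Itga8, Itgae, Itgav, Itgb1, Pcdh12, Sdc2 and Sdc4 on 1 probe set each. Of the 17, Cdh4 and Cdh8 stood farthest above the line of equal size. Below it, Cdh9, Itga3, Itgax and Itgb2 were among those with far wider gaps within a genotype than between genotypes.

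**Figure D4:**
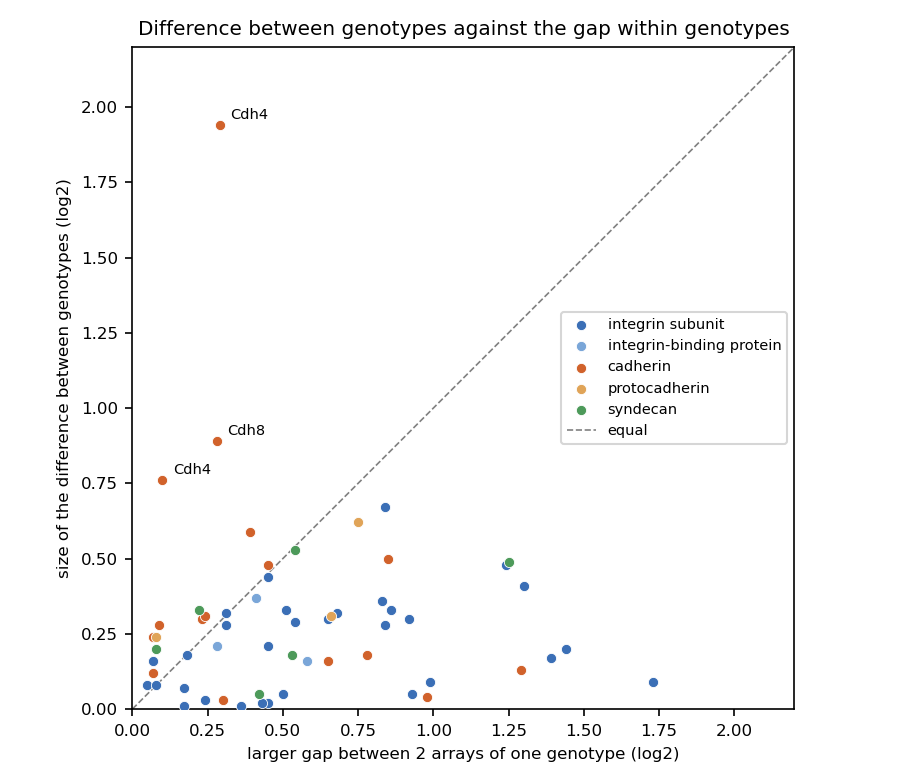
Size of the difference between genotypes (vertical axis, log2) against the larger of the gaps between the 2 arrays of a genotype (horizontal axis, log2) for each of the 59 probe sets, coloured by family, with a dashed line where both are equal. The 17 probe sets above the line include 2 of Cdh4, at 1.94 and 0.76, and Cdh8 (a difference of -0.89, plotted by its size), and most integrin points lie under it.

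Partners of these receptors were taken from 5 further lists of genes, 1 probe set per gene, and 0 genes passed adjustment in any of them. Of 22 measured genes of integrin adaptors and focal adhesions (30 listed), 15 read higher and 7 lower (median 0.08), with 5 apart higher and 2 apart lower. These 7 (31.8%) compare with 34.6% of all probe sets. Cav3, the caveolin of the muscle membrane, read 778 and 789 in WT, against 629 and 593 in KO (-0.35 ± 0.11, limma adjusted p = 0.813). Tln1, talin, which links the beta tail to actin, read 1020 and 1267 in the WT pools and 1237 and 1560 in the KO pools (0.29 ± 0.16), with overlap.

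Ligands of integrins were measured for 17 of 22 genes, 12 higher and 5 lower (median 0.06), 3 apart in each direction (17.6% each, near the shares of all probe sets). Fibronectin, Fn1, the ligand of Itga5 and Itgb1, read 433 and 424 in WT, against 315 and 358 in KO (-0.34 ± 0.13, limma adjusted p = 0.882). Lama2, the laminin chain of the muscle basement membrane that Itga7 binds, read 266 and 214 in the WT pools and 122 and 204 in the KO pools (-0.55 ± 0.27). Both were apart with KO lower, as was Itgb1, while Itga7 was not. Of 10 tetraspanins and lateral partners, 4 read higher and 6 lower (median -0.02). Among them Cd47, the thrombospondin receptor that associates with Itgb3 and Itgav, read 292 and 239 in WT, against 371 and 306 in KO (0.33 ± 0.17), and Plaur, the urokinase receptor, read 46.9 and 37.2 in the WT pools and 16.9 and 34.3 in the KO pools (-0.53 ± 0.39).

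On the cadherin side, 18 of 25 catenins and junction partners were measured, 11 higher and 7 lower (median 0.01), with 1 apart in each direction (5.56% each). Of all probe sets, 17.0% were apart with KO higher and 17.6% with KO lower. Ctnnd1, the p120 catenin that keeps cadherins at the membrane, read 522 and 593 in WT, against 632 and 803 in KO (0.35 ± 0.15, limma adjusted p = 0.908). Ctnnb1, beta-catenin, overlapped (-0.02 ± 0.11). Pkp1, a desmosomal plaque protein of skin, read 72.1 and 25.7 in the WT pools and 68.1 and 95.5 in the KO pools (0.70 ± 0.46). The summed epidermis markers, 5 of 5 measured, were also lowest in WT replicate 2, at 860.3 and 442 in WT, against 761 and 883 in KO. Most of that drop came from Krt10, at 389 and 36.8 in the WT pools and 351 and 425 in the KO pools. The dimmer Krt14 and Krt1 were also lowest in WT replicate 2, but Lor was lowest in KO replicate 1 and Krt5 in WT replicate 1. The part of these markers in the Pkp1 difference was not tested.

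Genes that build heparan sulfate, glypicans and syndecan partners were measured for 16 of 24, with 3 higher and 13 lower in KO (median -0.22). Of these, 0 were apart higher and 4 apart lower (25.0%), against 17.0% and 17.6% of all probe sets. Counting both directions, the 25.0% apart lay below the 34.6% of all probe sets. Ugdh, which makes the glucuronic acid donor of the chains, read 524 and 448 in the WT pools and 407 and 307 in the KO pools (-0.44 ± 0.17, limma adjusted p = 0.902). B3gat3, which completes the linker between chain and core protein, read 238 and 217 in WT, against 140.4 and 185 in KO (-0.46 ± 0.20). The syndecan core proteins, by contrast, had a median of 0.27, and this difference between the lists was not tested.

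Most markers of 2 other tissues were apart between the genotypes in these pools, though none passed adjustment in limma. Exocrine pancreas markers, 4 of 6 measured and all 4 apart, summed to 1042 and 1028 in the WT pools and 7525 and 2513 in the KO pools. Liver markers, 5 of 5 measured and 4 apart, summed to 377 and 1323 in WT, against 140.1 and 188 in KO. None was at 0. Ratios of 3' to 5' control signals were 0.624 and 0.686 in the WT pools and 0.729 and 0.866 in the KO pools for actin. For Gapdh they were 0.889 and 0.914 in WT, against 1.04 and 0.988 in KO, so both controls were apart with KO higher. The part of these in the differences of the members, among them Cdh4 and the epithelial Cdh1, Cdh16 and Sdc1, was not tested.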

How the data were processed

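Skeletal muscle RNA pools of 2 mice were read on 4 Affymetrix U74Av2 arrays, 2 per genotype. Groups follow the titles: in the labels, the tissue field holds the genotype and the reverse. The deposited values are signal intensities on a linear scale, 1 for each probe set on each array, and carry an equal scaling that was made before deposit. How probes were summarised is not stated in the labels, and detection calls were not used here. The number of arrays and, for most members, dim signal limit the precision. The p-values measure the spread between pools. Of 12488 probe sets, 66 controls were left out. Names came from the platform annotation, which gave several symbols to 396 probe sets and none to 1193. A pseudocount of 14 (20% of the median value) was added before log2. The model of genotype used limma 3.58.1 under R 4.3.3 (lmFit, eBayes with trend), two-sided, with Benjamini-Hochberg adjustment over 12422 probe sets. It was also run on simulated data with independent noise, which does not show how well it recovers differences in these pools.

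Members and lists were chosen with earlier results of these data known. Values on every array are given for a fixed set of role genes, the 3 probe sets of smallest p in each family and any past the size rule, and for the 2 genes of smallest p in each further list. Others, such as Itga2, Itgax, Cdh10, Cdh6 and Ctnnb1, were added after their values were seen. Itgb1bp2 and Itga2b, also in the fixed set, were not analysed here. Across all probe sets, same-numbered arrays did not deviate together (correlation 0.0034), and the main model was fitted without pairing. A single correlation cannot show whether some genes followed the replicate number.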

Additional observations from a re-analysis of the deposited data

How the results depend on the processing

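Of the comparisons, the count of members past the adjusted threshold was 0 under each alternative: 4 or 0.25 times the pseudocount, quantile normalization, median centring, no intensity trend, only probe sets above the median, and each array left out. The smallest adjusted p over all probe sets was 0.0633, without KO replicate 2. With a replicate block the count was also 0, the smallest adjusted p was 0.255 and the members' median stayed at 0.03, so no call changed. Members with the genotypes apart numbered 24, and 22 with median centring. With only probe sets above the median kept, 10 of the 20 members were apart, against 35.0% of all such probe sets. Without any 1 array, 38 to 44 members were apart (64.4% to 74.6%), against 66.5% to 69.5% of all probe sets. These counts are higher since fewer arrays overlap less often. The members' median of 0.03 ran from -0.02 (without WT replicate 1) to 0.07. Of 33 probe sets named by rule, 19 kept their sign without any 1 array. For the other 14, the difference ran from -0.02 to 0.43 for Itga4, -0.02 to 0.15 for Itga5, -0.76 to 0.10 for Itga6, -0.07 to 0.10 for Itga7, -0.02 to 0.63 for Itgam, -0.25 to 0.20 for Itgav, -0.45 to 0.14 for the second Itgb1bp1 probe set, -0.92 to 0.52 for Itgb2, -0.20 to 0.30 for Itgb3, -0.16 to 0.19 for Itgb4, -0.05 to 0.77 for Itgb7, -0.02 to 0.64 for the first Pcdh7 probe set, -0.13 to 1.12 for the second of Sdc1 and -0.26 to 0.16 for Sdc3. The cause was not tested. Dim signal limits 39 of the 59 members.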

Other observations

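The clustered alpha protocadherins, receptors of neurons that share constant exons, were read only by 8 probe sets carrying 9 or 14 symbols each and so were left out of the members. Their differences ran from -0.86 to 0.72 on the log2 scale, with 1 apart and higher in KO, 1 apart and lower, and 6 overlapping. Of all probe sets tested, 17.0% were apart with KO higher and 17.6% with KO lower. Such probe sets cannot be assigned to a single gene.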
